A study of Oryza sativa with 17 samples.

Results

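The genes described here are 9 expansin genes of rice, 5 alpha-expansins (EXPA1, EXPA2, EXPA3, EXPA4 and EXPA7) and 4 beta-expansins (EXPB2, EXPB3, EXPB4 and EXPB6). They were taken as a given list of locus names, with no threshold on their values. The list was, however, chosen with earlier results of these data known. Counts among the 9 set against all genes are thus not an independent comparison. All 9 were found among the 23223 genes of the deposited table, where each is annotated as an expansin. All 9 also passed the filter on low values (FPKM, fragments per kilobase of transcript scaled by library size, of at least 0.1 in at least 2 libraries) and were tested among 21949 genes. The seeds came from the weedy rice WR04-6, which germinates well in the cold, and from the cultivated rice QSZ. Both were imbibed at 10 °C and whole seeds, called germinating seeds by the study, were frozen at 10, 12 and 14 DAI (days after imbibition). In the study's germination counts at 10 °C, WR04-6 had begun to germinate before 10 DAI, whereas QSZ began only at 12 DAI. The QSZ seeds of 10 DAI thus precede the first germination reported for that accession. WR04-6 had 3 libraries at each time point, and QSZ had 2 at 10 DAI (its replicates 2 and 3) and 3 each at 12 and 14 DAI, 17 in all, which the study calls biological replicates. The labels name no transgene and no treatment beyond the cold, which every group shares, so the libraries compare accessions and times at 1 temperature. How many seeds went into a library, and whether seeds were picked by their state of germination, is not given in the sources used here.

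Expansins are small secreted proteins that let the cell wall stretch. They do not cut wall polymers; they loosen the contacts between cellulose and the matrix around it, so that turgor pressure can extend the wall. In a germinating grass seed the coleoptile and the young root emerge mainly by such extension, and expansin transcripts are commonly read as a sign of growing tissue. Alpha-expansins act on walls of many plants, whereas the beta-expansins form a family that is enlarged in grasses and includes the pollen allergens of that group.

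Positions are given on the rice genome of MSU release 7, as in the deposited table. EXPA1 (LOC_Os04g15840) lies on chromosome 4 from 8599011 to 8600299, EXPA2 (LOC_Os01g60770) on chromosome 1 from 35145516 to 35147338, and EXPA7 (LOC_Os03g60720) on chromosome 3 from 34508262 to 34511279. EXPA3 (LOC_Os05g19570, 11393114 to 11394900) and EXPA4 (LOC_Os05g39990, 23495606 to 23497572) share chromosome 5. The 4 beta-expansins stand side by side on chromosome 10 from 21830151 to 21861307, in the order EXPB6 (LOC_Os10g40700), EXPB2 (LOC_Os10g40710), EXPB3 (LOC_Os10g40720) and EXPB4 (LOC_Os10g40730). They are the only 4 genes of the table in those 31157 bp, with gaps of 4235, 10152 and 9023 bp between them. No other gene of the table overlapped any of the 9 loci. How reads that match more than 1 of the neighbouring beta-expansins were assigned is not given in the sources used here, so the split of signal among these related copies is uncertain.

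WR04-6 libraries held 51209499 to 72494532 estimated counts, and QSZ libraries 33280479 to 68909607. The QSZ libraries of 10 DAI were the shallowest of all, at 33280479 and 42313486. In the study's quality control they also kept the lowest shares of their raw reads. Depth and the share of reads kept are thus both tied to that time point in QSZ. FPKM values are scaled by library totals alone, and on log2(FPKM + 0.1) the median gene differed by 0.26, 0.43 and 0.35 at 10, 12 and 14 DAI, with WR04-6 above QSZ. After TMM scaling (trimmed mean of M-values), on which every fold change below rests, these medians were 0.03, 0.06 and 0.08. The 3 QSZ libraries at 12 DAI were the least alike of any group, with r = 0.939 between replicates 1 and 3 over all tested genes on the log2(FPKM + 0.1) scale. Replicate 1 stood apart from replicates 2 and 3 for several expansins, and the 12 DAI fold changes of the called genes are also given without it. Over all tested genes, however, replicate 2 was about as close to replicate 1 (r = 0.971) as to replicate 3 (r = 0.969). Replicates 1, 2 and 3 had 21011, 20568 and 19874 genes above 0. Replicate 3 had the fewest of all 17 libraries and also the lowest TMM factor, 0.805. Which of the 3 libraries is the unusual one was not tested.

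Together the 9 genes gave much more signal in WR04-6 than in QSZ at 12 DAI. Their summed FPKM in WR04-6 averaged 699 ± 33.0 at 10 DAI, 559 ± 16.0 at 12 DAI and 438 ± 98.3 at 14 DAI (SD, n = 3 each). In QSZ it averaged 498 ± 32.3 at 10 DAI (SD, n = 2), 94.2 ± 48.6 at 12 DAI and 314 ± 60.3 at 14 DAI (SD, n = 3 each). The 12 DAI sums did not overlap, at 542 to 574 in WR04-6 and 56.6 to 149 in QSZ. The 10 DAI sums did not overlap either, at 660 to 720 in WR04-6 and 475 to 520 in QSZ, but the 14 DAI sums did. Within QSZ at 12 DAI, the 5 alpha-expansins summed to 80.2, 65.1 and 52.2 FPKM in replicates 1, 2 and 3, while the 4 beta-expansins summed to 68.9, 11.8 and 4.38 FPKM, so the libraries were farther apart in the beta-expansins. In bulk seeds, fewer cells of a type and less RNA per cell cannot be told apart.

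**Figure D1:**
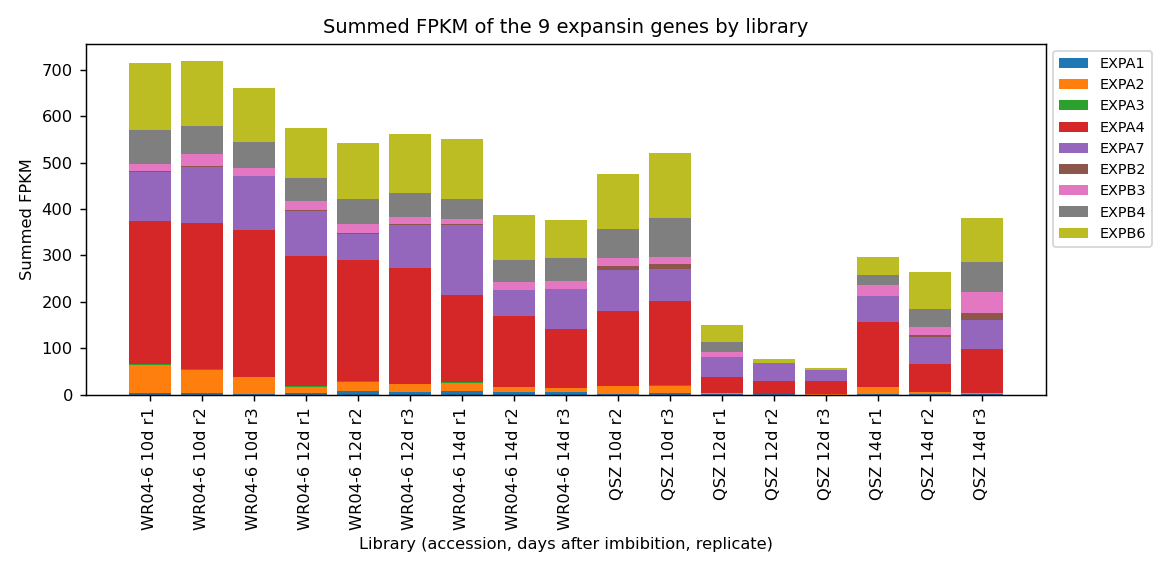
Summed FPKM of the 9 expansin genes, 1 bar per library, stacked by gene, with WR04-6 left of QSZ and each labelled by days after imbibition and replicate. The WR04-6 bars lie between 375 and 720 FPKM, and the 3 QSZ bars at 12 DAI lie between 56.6 and 149 FPKM.

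EXPA4 was the most abundant of the 9 in every WR04-6 library, with 34.0 to 49.0% of the summed FPKM. In WR04-6 the mean FPKM ran, from the highest, in the order EXPA4, EXPB6, EXPA7 and EXPB4 at each time point, and EXPA1, EXPA3 and EXPB2 were the 3 lowest. The libraries of neighbours in this order mostly did not overlap at 12 DAI, apart from EXPB3 with EXPA2 and EXPB2 with EXPA3. At 14 DAI EXPA4, EXPB6 and EXPA7 overlapped in turn. In QSZ the same 4 genes led, but at 12 DAI EXPA7 averaged 34.4 ± 9.92 FPKM and EXPA4 29.9 ± 3.25 FPKM (SD, n = 3 each), and each neighbour in the order overlapped the next.

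At 12 DAI, 6 of the 9 genes were up-regulated in WR04-6 vs. QSZ and none was down-regulated. A DEG here has a Benjamini-Hochberg adjusted p under 0.05 by edgeR's quasi-likelihood test and an absolute log2 fold change of at least 1. Of all tested genes 16.3% were up-regulated and 13.2% down-regulated in this comparison. The 6 were the alpha-expansins EXPA1, EXPA2, EXPA3 and EXPA4 and the beta-expansins EXPB4 and EXPB6. The count was 4 without QSZ replicate 2 of 12 DAI and 8 without its replicate 1, the ends of the range over all libraries left out in turn. Shares of all tested genes are not given for such refits. Without replicate 1 the log2 fold changes were 4.40 for EXPA1, 4.78 for EXPA2, 2.84 for EXPA4, 5.01 for EXPB4 and 3.78 for EXPB6, and EXPA3 was at 0 in both QSZ libraries that remained. The median log2 fold change was 2.50 over the 9 genes and 0.06 over all tested genes. For 8 of the 9, EXPB2 being the exception, all WR04-6 libraries lay above all QSZ libraries, and 50.0% of all tested genes showed this.

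EXPA4 had the smallest adjusted p of the 9. This alpha-expansin is known in rice for its part in the growth of coleoptiles and internodes, and the deposited annotation lists it under the response to gibberellin. In WR04-6 it reached 308, 316 and 317 FPKM at 10 DAI, 281, 261 and 250.1 FPKM at 12 DAI and 189, 154 and 128 FPKM at 14 DAI. In QSZ it reached 162 and 181 FPKM at 10 DAI, 33.7, 28.0 and 28.1 FPKM at 12 DAI and 142, 60.0 and 93.5 FPKM at 14 DAI. All WR04-6 libraries were above all QSZ libraries at 10 and 12 DAI, and the accessions overlapped at 14 DAI. The log2 fold change was 2.77 (SE 0.25) at 12 DAI, a 6.82-fold difference (edgeR, adjusted p = 1.3e-06). It was 0.64 (SE 0.27) at 10 DAI and 0.37 (SE 0.24) at 14 DAI, with adjusted p = 0.0723 and 0.227, and neither passed the test.

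EXPA2 showed the same arrangement at a lower level. It was highest in WR04-6 at 10 DAI, with 61.9, 50.2 and 36.3 FPKM, and stood at 13.2, 19.7 and 17.3 FPKM at 12 DAI and 17.9, 10.2 and 8.16 FPKM at 14 DAI. QSZ had 17.2 and 16.5 FPKM at 10 DAI, 2.29, 0.471 and 0.434 FPKM at 12 DAI and 15.2, 3.95 and 2.85 FPKM at 14 DAI. The accessions did not overlap at 10 and 12 DAI. The log2 fold change at 12 DAI was 3.61 (SE 0.69), 12.2-fold (edgeR, adjusted p = 0.000702), and the difference at 10 DAI did not pass (adjusted p = 0.161).

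EXPA1 and EXPA3 were rare transcripts in both accessions. EXPA1 had 3.80, 7.09 and 5.26 FPKM in WR04-6 at 12 DAI, against 0.710, 0.384 and 0 FPKM in QSZ. At 14 DAI it had 7.09, 5.30 and 5.95 FPKM in WR04-6, against 0.259, 1.49 and 0.957 FPKM in QSZ. At 10 DAI the accessions overlapped, with 2.82, 2.60 and 1.64 FPKM in WR04-6 and 0.158 and 2.42 FPKM in QSZ. The log2 fold change was 3.51 (SE 1.01, edgeR, adjusted p = 0.0105) at 12 DAI and 2.48 (SE 0.95, adjusted p = 0.0522) at 14 DAI, so the groups did not overlap at 14 DAI but the test was missed by a narrow margin.

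EXPA3 had 0.950, 1.72 and 0.759 FPKM in WR04-6 at 12 DAI, against 0.268, 0 and 0 FPKM in QSZ (log2 fold change 3.30, SE 1.20, edgeR, adjusted p = 0.0351). The QSZ libraries held 23, 0 and 0 estimated counts of it, so the size of this fold change is poorly fixed. The call was lost on leaving out WR04-6 replicate 1 or 2 (adjusted p = 0.0541 and 0.0923) or QSZ replicate 2 or 3 (adjusted p = 0.0887 and 0.0795) at 12 DAI. At the other times EXPA3 ranged from 0.266 to 1.89 FPKM in WR04-6 and 0.213 to 1.38 FPKM in QSZ, with overlap.

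EXPA7 ranged from 23.7 to 151 FPKM over all libraries. In WR04-6 it had 106, 119.9 and 115 FPKM at 10 DAI, 97.3, 56.4 and 91.6 FPKM at 12 DAI and 151, 54.5 and 84.6 FPKM at 14 DAI. In QSZ it had 89.6 and 69.5 FPKM at 10 DAI, 43.2, 36.3 and 23.7 FPKM at 12 DAI and 54.7, 57.8 and 63.0 FPKM at 14 DAI. The 12 DAI groups did not overlap. The log2 fold change of 0.89 (SE 0.32, edgeR, adjusted p = 0.0314) passed the p limit but not the fold limit, so EXPA7 was not a DEG. It became one, with 1.10 and 1.06, without WR04-6 replicate 2 or QSZ replicate 1 at 12 DAI.

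**Figure D2:**
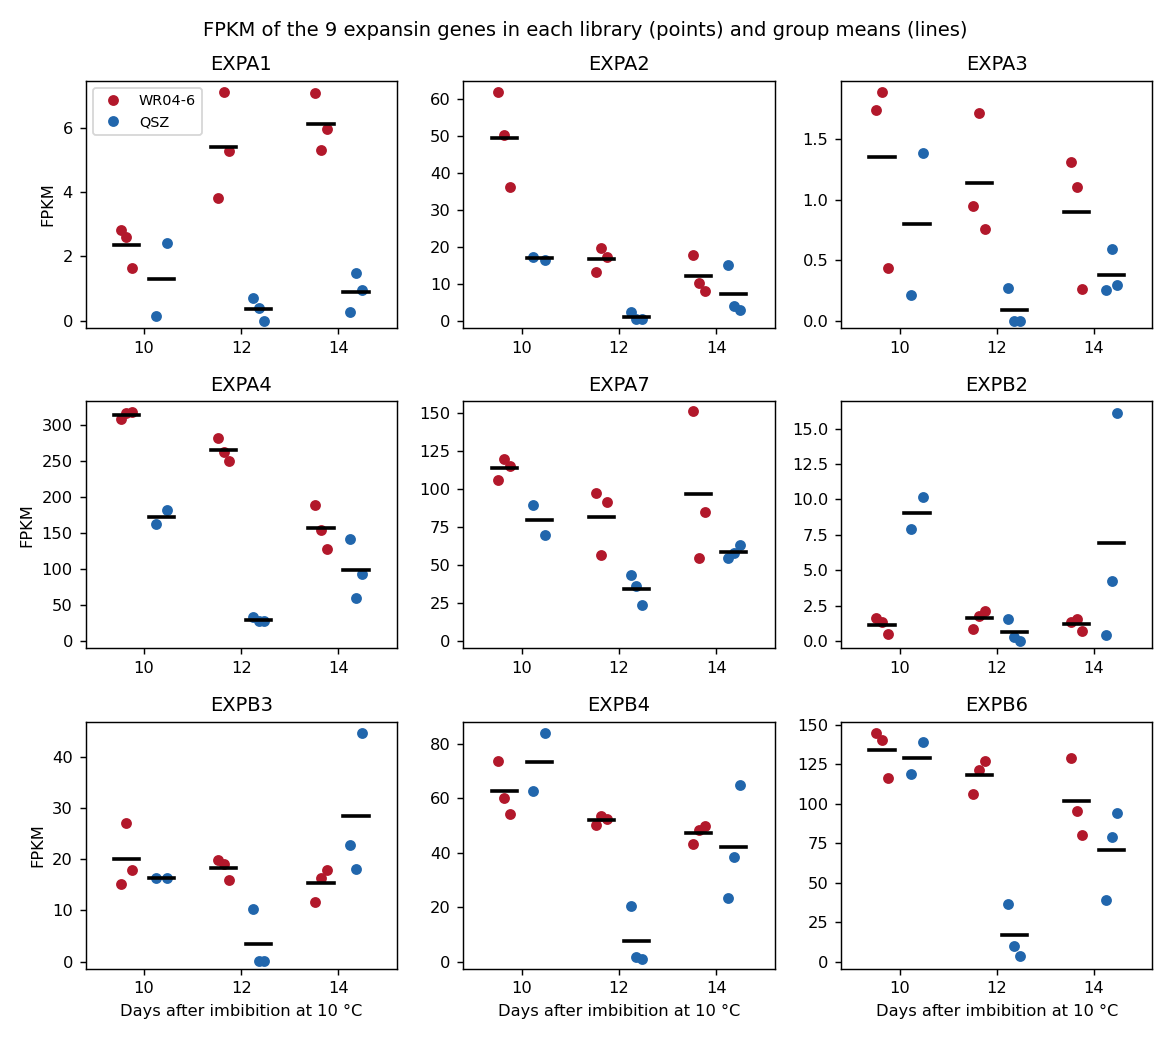
FPKM of each of the 9 genes, 1 panel per gene, against days after imbibition at 10 °C. Points are libraries, WR04-6 left of QSZ at each time, and lines are group means. The QSZ points at 12 DAI are the lowest of the 3 QSZ times in the panels of EXPA2, EXPA4, EXPA7, EXPB3, EXPB4 and EXPB6.

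Of the beta-expansins, EXPB6 and EXPB4 were the abundant pair. EXPB6 had 145, 141 and 117 FPKM in WR04-6 at 10 DAI, 106, 122 and 127 FPKM at 12 DAI and 129, 95.7 and 80.3 FPKM at 14 DAI. In QSZ it had 119 and 139 FPKM at 10 DAI, 36.5, 9.75 and 3.48 FPKM at 12 DAI and 38.9, 78.8 and 94.4 FPKM at 14 DAI. The accessions overlapped at 10 and 14 DAI and stood apart at 12 DAI, where the log2 fold change was 2.50 (SE 0.57, edgeR, adjusted p = 0.00255).

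EXPB4 was likewise lowest in QSZ at 12 DAI. It had 73.6, 60.2 and 54.4 FPKM in WR04-6 at 10 DAI, 50.3, 53.7 and 52.4 FPKM at 12 DAI and 43.1, 48.5 and 49.8 FPKM at 14 DAI. In QSZ it had 62.7 and 84.0 FPKM at 10 DAI, 20.5, 1.60 and 0.863 FPKM at 12 DAI and 23.3, 38.6 and 65.0 FPKM at 14 DAI. The groups did not overlap at 12 DAI (log2 fold change 2.43, SE 0.79, edgeR, adjusted p = 0.0203), and the call was lost without QSZ replicate 2 at 12 DAI (adjusted p = 0.0614). The size rested on QSZ replicate 1 of 12 DAI. Without it the log2 fold change was 5.01, and with it as the only QSZ library of that time 0.96 (adjusted p = 0.0810).

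EXPB3 did not pass edgeR's test in any comparison of all libraries, and its QSZ values at 12 DAI were far apart. They were 10.3, 0.161 and 0.0372 FPKM, against 19.9, 19.0 and 15.9 FPKM in WR04-6 (log2 fold change 2.05, SE 1.08, edgeR, adjusted p = 0.131). Without QSZ replicate 1 the log2 fold change was 7.09 (edgeR, adjusted p = 7.9e-07). The QSZ replicates 2 and 3 that remained held 16 and 4 estimated counts, so the size of this fold change is poorly fixed. With all libraries, limma on log2(FPKM + 0.1) called EXPB3 in WR04-6 vs. QSZ at 12 DAI and in QSZ from 10 to 12 and from 12 to 14 DAI, with differences of 4.67, −4.51 and 5.20 on that scale (adjusted p = 0.00211, 0.0127 and 0.0366). The other 2 limma fits called it in the same 3 comparisons. At 10 DAI EXPB3 had 15.2, 27.1 and 17.8 FPKM in WR04-6 and 16.4 and 16.3 FPKM in QSZ. At 14 DAI all WR04-6 libraries (11.7, 16.2 and 17.9 FPKM) lay below all QSZ libraries (22.8, 18.0 and 44.5 FPKM), with a log2 fold change of −1.18 (SE 1.05) and adjusted p = 0.390.

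EXPB2, a gene tied in rice to the growth of the root system, had its lower values in WR04-6 at 10 DAI. It had 1.63, 1.32 and 0.532 FPKM in WR04-6 at 10 DAI, against 7.89 and 10.2 FPKM in QSZ, with no overlap (log2 fold change −3.20, SE 1.23, edgeR, adjusted p = 0.0503). At 12 DAI it had 0.868, 1.79 and 2.15 FPKM in WR04-6 and 1.56, 0.328 and 0 FPKM in QSZ. At 14 DAI it had 1.36, 1.57 and 0.697 FPKM in WR04-6, against 0.450, 4.25 and 16.1 FPKM in QSZ (log2 fold change −2.78, SE 1.16, adjusted p = 0.0700). EXPB2 was thus low in all 9 WR04-6 libraries and ranged from 0 to 16.1 FPKM in QSZ. Its 10 DAI call appeared with median-ratio scaling, with DESeq2, with 4 further alternatives and on leaving out QSZ replicate 1 or 3 at 12 or at 14 DAI.

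At 10 and 14 DAI none of the 9 genes was a DEG, against 23.6% and 21.3% of all tested genes. An unadjusted p under 0.05 was found for 2 genes at 10 DAI (EXPA4 and EXPB2) and 2 at 14 DAI (EXPA1 and EXPB2). DESeq2 called 1 gene at 10 DAI and 2 at 14 DAI, and limma on log2(FPKM + 0.1) called 0 and 1. The count at 14 DAI was 3 (EXPA1, EXPB2 and EXPB3) without QSZ replicate 1 of 12 DAI, 2 without QSZ replicate 3 of 12 DAI or replicate 1 of 14 DAI, and 1 without either QSZ library of 10 DAI. The median log2 fold change of the 9 was 0.27 at 10 DAI and 0.37 at 14 DAI. All WR04-6 libraries were above all QSZ libraries for 3 genes at 10 DAI (EXPA2, EXPA4 and EXPA7), where 41.3% of all tested genes showed this, and for EXPA1 at 14 DAI, where 43.1% did. They were all below for EXPB2 at 10 DAI (21.7% of all tested genes) and for EXPB3 at 14 DAI (15.1%).

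**Figure D3:**
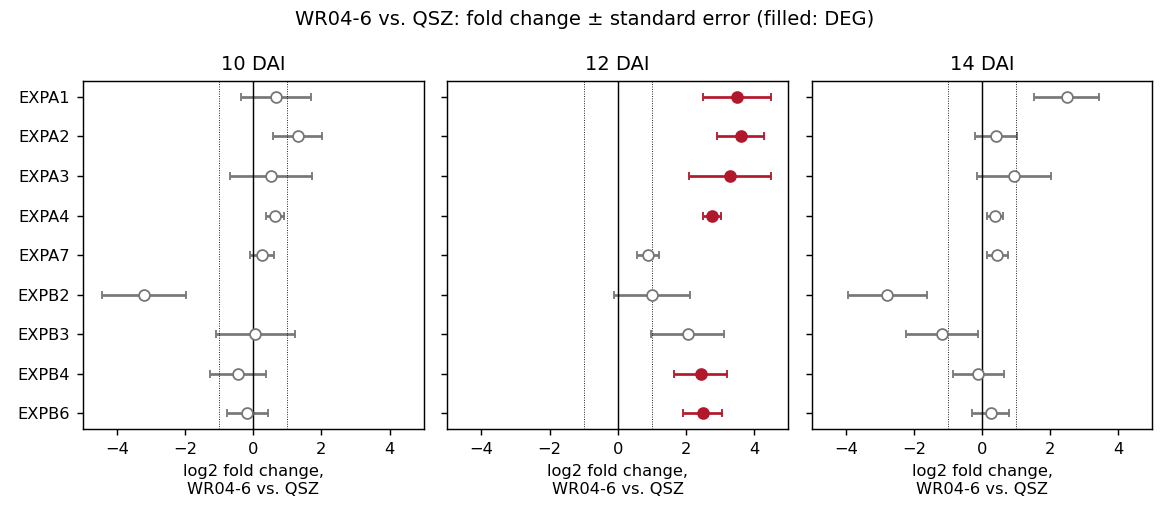
Log2 fold change of WR04-6 vs. QSZ for each gene at 10, 12 and 14 DAI, with bars of 1 standard error from edgeR. Filled symbols are DEGs, dotted lines mark the fold limit, and the 6 filled symbols are all in the 12 DAI panel.

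The size of the accession difference changed with time for EXPA4, which was the only one of the 9 to pass the test of interaction between accession and time (edgeR, adjusted p = 0.0103, against 8.98% of all tested genes). Its adjusted p stayed under 0.05 in all 27 alternatives tried, from 2.3e-09 to 0.0443. EXPA2 and EXPB6 came next, with adjusted p = 0.0743 and 0.0760. Without QSZ replicate 1 at 12 DAI 6 of the 9 passed, and without QSZ replicate 3 at 14 DAI 2 did. For the other genes, the comparison of a DEG at 12 DAI with no DEG at 10 or 14 DAI is not a difference that passed a test. Averaged over the 3 times, EXPA1, EXPA2 and EXPA4 were up-regulated in WR04-6 and EXPB2 was down-regulated, with log2 fold changes of 2.22, 1.78, 1.26 and −1.66 (edgeR, adjusted p = 0.00426, 0.00114, 4.3e-06 and 0.0400). Of all tested genes, 14.5% were up-regulated and 14.0% down-regulated in this average.

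In QSZ, 6 of the 9 genes fell between 10 and 12 DAI, where 7.72% of all tested genes were down-regulated. They were EXPA2, EXPA4, EXPA7, EXPB2, EXPB4 and EXPB6. Their log2 fold changes were −3.88 (SE 0.73), −2.39 (SE 0.27), −1.11 (SE 0.34), −3.73 (SE 1.26), −3.16 (SE 0.85) and −2.86 (SE 0.61), with adjusted p = 0.00194, 0.000223, 0.0283, 0.0399, 0.0141 and 0.00393 by edgeR. The median over the 9 was −2.86. All 12 DAI libraries lay below both 10 DAI libraries for 7 of the 9, and 29.1% of all tested genes showed this. EXPA1 and EXPA3 overlapped, and EXPB3 did not overlap but had adjusted p = 0.186. These values share the QSZ 12 DAI libraries with the accession comparison at 12 DAI, so the 2 results are not separate.

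Several of these calls rested on few libraries. The count was 4 without either QSZ library of 10 DAI or without QSZ replicate 2 or 3 of 12 DAI, and 8 without QSZ replicate 1 of 12 DAI. Without that replicate the log2 fold changes of the 6 were −5.05 for EXPA2, −2.46 for EXPA4, −1.28 for EXPA7, −5.61 for EXPB2, −5.74 for EXPB4 and −4.15 for EXPB6. With replicate 1 as the only QSZ library of 12 DAI, a choice made after seeing the data, 3 genes were called in this comparison (EXPA4, EXPB4 and EXPB6) and 3 in WR04-6 vs. QSZ at 12 DAI (EXPA2, EXPA4 and EXPB6). EXPB4 in QSZ was lost without replicate 3 of 10 DAI (adjusted p = 0.0533). EXPA7 was lost without QSZ replicate 2 of 10 DAI or replicate 2 or 3 of 12 DAI, and EXPB2 without any 1 of 8 libraries, 4 of them of WR04-6.

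Between 12 and 14 DAI in QSZ, EXPA4 was the only DEG among the 9, with a log2 fold change of 1.63 (SE 0.24, edgeR, adjusted p = 0.0354), against 0.255% of all tested genes up-regulated. This call was lost without any 1 of 8 libraries (QSZ replicate 2 or 3 of 12 DAI, QSZ replicate 3 of 14 DAI, WR04-6 replicate 2 of 10 DAI, replicate 1 or 3 of 12 DAI, or replicate 2 or 3 of 14 DAI), where its adjusted p was 0.0514 to 0.109. Without QSZ replicate 1 of 12 DAI 7 genes were called, and without QSZ replicate 1 of 14 DAI 2 were. The share of all tested genes called in these refits is not given here, so these counts cannot be set against 0.255%. EXPA4 was thus the only one of the 9 called both down at 12 DAI and up at 14 DAI in QSZ, as were 0.246% of all tested genes. All 14 DAI libraries were above all 12 DAI libraries for 6 genes (EXPA2, EXPA4, EXPA7, EXPB3, EXPB4 and EXPB6), which 12.0% of all tested genes showed. The log2 fold changes of the other 5 of these ran from 0.68 to 2.96 with adjusted p of 0.0699 to 0.253. From 10 to 14 DAI in QSZ no gene of the 9 was a DEG, against 1.62% of all tested genes, and 1 (EXPA4) had an unadjusted p under 0.05 while DESeq2 and limma called 0. EXPA4 was called there without QSZ replicate 1 of 14 DAI, with a log2 fold change of −1.15. Its libraries at 14 DAI lay below both 10 DAI libraries, as did those of EXPA2, EXPA7 and EXPB6 (4 genes, against 17.4% of all tested genes), while those of EXPB3 lay above (15.7%).

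In WR04-6 no gene of the 9 was a DEG between any 2 times, by edgeR. The background was low as well, at 0.0273% of all tested genes between 10 and 12 DAI, 0.688% between 12 and 14 DAI and 0.241% between 10 and 14 DAI. An unadjusted p under 0.05 was found for 1 gene, 1 gene and 2 genes, and DESeq2 called 0, 0 and 2 (limma on log2(FPKM + 0.1) called 0 in each). The 2 were EXPA2 and EXPA4 between 10 and 14 DAI, with log2 fold changes of −2.04 (SE 0.63, adjusted p = 0.249) and −1.03 (SE 0.24, adjusted p = 0.0906). All 14 DAI libraries of both genes, and of EXPB4, were below all 10 DAI libraries (8.74% of all tested genes). All 12 DAI libraries were below all 10 DAI libraries for 4 genes (EXPA2, EXPA4, EXPA7 and EXPB4, against 12.1%), and all 14 DAI libraries were below all 12 DAI libraries for EXPA4 and EXPB4 (12.8%). EXPA4 passed from 10 to 14 DAI without QSZ replicate 1 or 2 of 14 DAI. EXPA1 had the opposite arrangement, with 12 and 14 DAI libraries all above the 10 DAI libraries (8.82% and 8.14% of all tested genes) and adjusted p = 0.750 and 0.722.

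**Figure D4:**
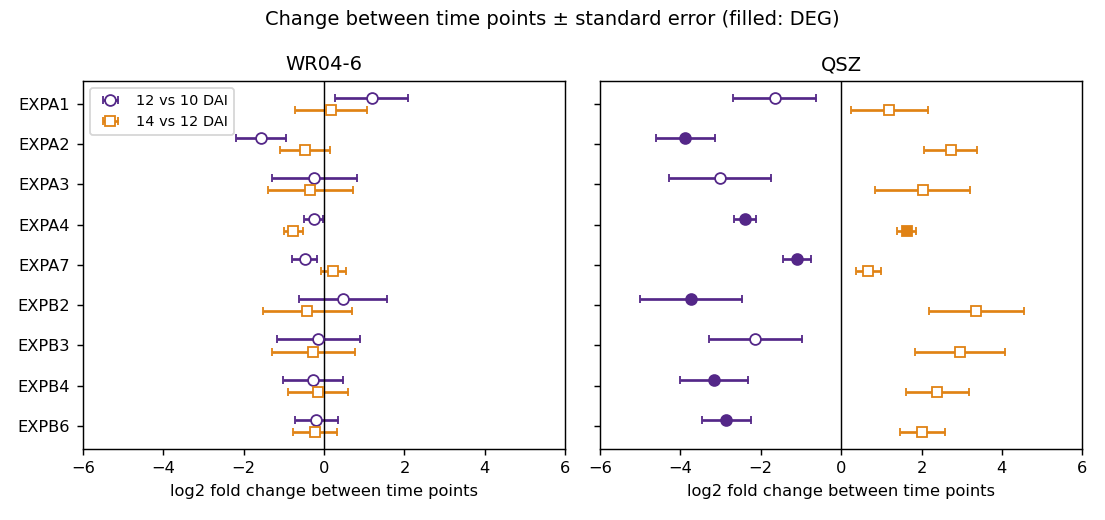
Log2 fold change between successive times within WR04-6 (left) and QSZ (right), with bars of 1 standard error. Filled symbols are DEGs. In the QSZ panel all 9 circles (12 vs. 10 DAI) are left of 0 and all 9 squares (14 vs. 12 DAI) are right of 0, of which 6 circles and 1 square are filled.

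The 9 genes also varied together from library to library in QSZ. On log2(FPKM + 0.1), the median Pearson r over the 36 pairs of genes was 0.812 across the 8 QSZ libraries, and 34 pairs had r over 0.5. Across the 9 WR04-6 libraries the median was 0.285 and 9 pairs had r over 0.5. These values are a description only, since the genes share libraries and the QSZ values are spread by the 12 DAI group. EXPB4 and EXPB6, at the 2 ends of the chromosome 10 cluster, had r = 0.986 in QSZ (rho 0.976) and r = 0.525 in WR04-6 (rho 0.567). EXPA2 and EXPA4, on different chromosomes, had r = 0.941 in QSZ (rho 0.929) and 0.814 in WR04-6 (rho 0.817). EXPA1 went against EXPA2 in WR04-6, with r = −0.70.

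**Figure D5:**
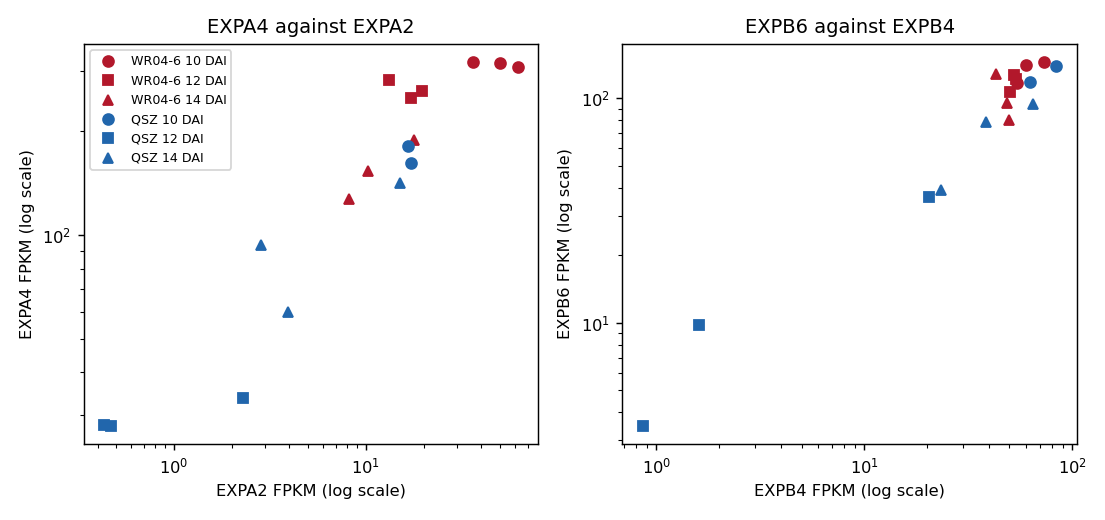
EXPA4 against EXPA2 (left) and EXPB6 against EXPB4 (right), FPKM on log axes, 1 point per library, with colour for accession and shape for days after imbibition. The QSZ 12 DAI squares lie at the low end of both panels, where EXPA2 is 0.434 to 2.29 FPKM and EXPB4 0.863 to 20.5 FPKM.

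Likeness to the leading alpha- and beta-expansin was ranked over 17708 genes (mean FPKM 1 or more). The genes whose log2(FPKM + 0.1) ran closest to EXPA4 over the 17 libraries were LOC_Os01g64230 (annotated as a hypothetical protein, r = 0.963), the bZIP transcription factor LOC_Os01g59350 (r = 0.956), LOC_Os03g63970 (annotated as gibberellin 20 oxidase 1-like, r = 0.950), the RAP2-4 ethylene-responsive factor LOC_Os02g51670 (r = 0.949) and EXPA2 (r = 0.948). Gibberellin 20-oxidases make the precursors of active gibberellins. Within WR04-6 these r ranged from 0.716 to 0.883 and within QSZ from 0.927 to 0.947, and without the 2 libraries farthest from the median they were 0.901 to 0.944. The genes closest to EXPB6 were LOC_Os07g02200 (blue copper protein, r = 0.982), LOC_Os04g42650 (UPF0481 family, r = 0.982), LOC_Os08g16810 (uncharacterized, r = 0.982), LOC_Os10g26500 (HOX23-like homeobox-leucine zipper protein, r = 0.980) and LOC_Os03g30830 (plasmodesmata callose-binding protein 3, r = 0.978). Their r was 0.983 to 0.994 within QSZ but −0.06 to 0.667 within WR04-6, and without the 2 libraries farthest from the median it was 0.846 to 0.898.

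The other expansin genes did not all share this pattern. The table annotates 39 further expansin genes, of which 31 were tested. In WR04-6 vs. QSZ at 10 DAI, 7 were down-regulated and none up-regulated. At 12 DAI 9 were up-regulated and 5 down-regulated in WR04-6 vs. QSZ, and at 14 DAI 7 were down-regulated and none up-regulated. The median log2 fold changes of these 31 were −0.63 at 10 DAI and 1.11 at 12 DAI. In QSZ, 7 of the 31 fell between 10 and 12 DAI and none rose. At 10 and 14 DAI 23.6% and 21.3% of all tested genes were DEGs in either direction, so 7 of 31 is near that share. At 12 DAI 16.3% of all tested genes were up-regulated and 13.2% down-regulated. The share of all tested genes that fell in QSZ between 10 and 12 DAI was 7.72%. The 9 listed genes made up 48.9 to 57.9% of the FPKM of all expansins in WR04-6 libraries and 20.7 to 46.5% in QSZ libraries.

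EXPB8 (LOC_Os03g01260) was the most abundant of these, with 324 ± 17.9, 247 ± 30.4 and 181 ± 11.3 FPKM in WR04-6 at 10, 12 and 14 DAI (SD, n = 3 each). QSZ had 494 ± 74.5 FPKM at 10 DAI (SD, n = 2), 27.8 ± 28.7 FPKM at 12 DAI and 115 ± 39.8 FPKM at 14 DAI (SD, n = 3 each). It was up-regulated in WR04-6 at 12 DAI (log2 fold change 2.81, edgeR, adjusted p = 0.00166) and fell in QSZ between 10 and 12 DAI (−4.05, adjusted p = 0.000966). EXPA29 (LOC_Os06g50400) had the same calls, with 2.35 and −2.97 (adjusted p = 0.000212 and 0.000487).

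EXPA5 (LOC_Os02g51040), another abundant alpha-expansin outside the 9, was not a DEG at 12 DAI (log2 fold change −0.89, edgeR, adjusted p = 0.0531). It was down-regulated in WR04-6 at 10 and 14 DAI, with log2 fold changes of −1.44 and −1.66 (edgeR, adjusted p = 0.00923 and 0.00254), and its QSZ mean at 12 DAI was 76.8 ± 45.8 FPKM, against 79.2 ± 22.6 FPKM at 10 DAI. EXPB18 (LOC_Os05g15690) and expansin-like A1 (LOC_Os03g04020) were the only expansins down-regulated in WR04-6 at all 3 times, with log2 fold changes of −4.83, −2.38 and −4.37 for EXPB18 (edgeR, adjusted p = 0.000591, 0.0188 and 0.000948) and −1.91 and −2.70 at 10 and 12 DAI for expansin-like A1 (0.00152 and 5.9e-05, and 0.00497 at 14 DAI). No expansin gene was up-regulated at all 3 times, a state that 6.34% of all tested genes showed, and none of the 9 was down-regulated at all 3 times (6.05%).

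Other wall genes were counted in the same way. Of all tested genes, 16.3% were up-regulated and 13.2% down-regulated in WR04-6 at 12 DAI. At 10 and 14 DAI 23.6% and 21.3% were DEGs in either direction, and 7.72% fell in QSZ between 10 and 12 DAI. Of 24 tested xyloglucan endotransglucosylase/hydrolases, which cut and rejoin xyloglucan chains, 0, 4 and 1 were up-regulated in WR04-6 at 10, 12 and 14 DAI, and 2, 4 and 0 were down-regulated. Of 34 tested genes under pectinesterase activity, 1, 4 and 1 were up-regulated and 7, 10 and 12 down-regulated at the 3 times. These include genes that are not annotated as the enzyme, such as pectinesterase inhibitor 8 (LOC_Os02g33380), down-regulated at all 3 times, and LOC_Os11g45220, annotated as an ATRX homolog and listed at 0 in all WR04-6 libraries. Of 26 tested genes under plant-type cell wall loosening beyond the 9, mostly expansins already counted, 0, 8 and 0 were up-regulated and 5, 3 and 5 down-regulated. In QSZ between 10 and 12 DAI, 6 of the 24 xyloglucan enzymes, 10 of the 34 genes under pectinesterase activity and 6 of these 26 fell, and 1, 0 and 0 rose.

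Cellulose synthases make the fibres whose contacts expansins loosen. Of all tested genes, 16.3% were up-regulated in WR04-6 vs. QSZ at 12 DAI, and 6.05% were down-regulated at all 3 times. Of 5 subunits of the primary wall, 1, 3 and 0 were up-regulated in WR04-6 at 10, 12 and 14 DAI and none was down-regulated, and none changed in QSZ between 10 and 12 DAI. Of the 3 of the secondary wall, CESA4 (LOC_Os01g54620) was down-regulated at all 3 times, with log2 fold changes of −1.41, −1.89 and −2.09 (edgeR, adjusted p = 0.000326, 1.3e-05 and 6.6e-06), and the other 2 were not called.

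Markers of seed tissues also differed between the accessions, and some of them changed in QSZ between 10 and 12 DAI. The 2 oleosins of oil bodies summed to 209 to 375 FPKM in WR04-6 and 2656 to 4196 FPKM in QSZ at 12 DAI. Both were down-regulated in WR04-6 at all 3 times and both rose in QSZ between 10 and 12 DAI. The 6 green leaf genes summed to 49.1 to 98.1 FPKM in WR04-6 and 3.57 to 5.13 FPKM in QSZ at 12 DAI, with 3 of 6 up-regulated in WR04-6 and 4 of 6 down-regulated in QSZ between 10 and 12 DAI. The 5 endosperm glutelins summed to 3363 to 4557 FPKM in WR04-6 and 6500.4 to 14720.2 FPKM in QSZ at 12 DAI, where 1 was up-regulated and 2 were down-regulated. The 3 aleurone amylases summed to 19.3 to 29.6 FPKM in WR04-6 and 36.7 to 450.3 FPKM in QSZ at 12 DAI, with 2 down-regulated. In QSZ between 10 and 12 DAI, 0 of the 5 glutelins and 0 of the 3 amylases were called. Of all tested genes, 16.3% were up-regulated and 13.2% down-regulated in WR04-6 at 12 DAI, and 7.72% fell in QSZ between 10 and 12 DAI. Down-regulation at all 3 times was shown by 6.05%. The share that rose in QSZ between 10 and 12 DAI is not given here, so the rise of the oleosins has no such comparison. None of these markers was at 0 in every library of a group, and their part in the expansin results was not tested.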

How the data were processed

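PolyA RNA of whole seeds was sequenced from 17 libraries. The authors trimmed reads with cutadapt 1.9 and, per the labels, used HISAT2 2.0.4 and StringTie 1.3.4d; the deposited table gives FPKM and estimated counts, computed from coverage, per gene. 1 sequenced fragment stands for about 4 estimated counts. Of the value columns, 0 belonged to no sample. Groups followed the labels.

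Estimated counts were tested with edgeR 4.0.16 in R 4.3.3 (TMM, quasi-likelihood, 6 groups in 1 fit of all 17 libraries, Benjamini-Hochberg adjustment over 21949 genes). DEGs had an adjusted p below 0.05 and an absolute log2 fold change of at least 1. P-values measure the spread between these libraries. Alternatives were median-ratio scaling, library totals, DESeq2 1.42.0, no filter, counts divided by 4, limma 3.58.1 on log2(FPKM + 0.1) or log2(FPKM + 1), quantile normalization, a replicate block, a limit of 0.01 and each library left out in turn.

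Beyond the 9 genes, the text names other expansins and wall genes called the same way at all 3 times, the 3 most abundant other expansins, and the 5 genes closest to EXPA4 and to EXPB6. The 9 genes, the lists and the tests were chosen with earlier results of these data known. Names came from the deposited annotation, and all 9 matched a synonym in RefSeq's gene table (another assembly, from which no coordinates were used).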

Additional observations from a re-analysis of the deposited data

Results flagged for a closer look

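EXPA4 differed between WR04-6 and QSZ by an amount that changed with time (interaction of accession and time, edgeR, Benjamini-Hochberg adjusted p = 0.0103). The log2 fold change of WR04-6 vs. QSZ was 0.64 at 10 DAI, 2.77 at 12 DAI and 0.37 at 14 DAI. No group had enough libraries for a test of single outlying libraries.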

How the results depend on the processing

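Of 2187 comparisons of a gene's value with an alternative, 2078 did not alter the call, 74 passed where the fit of all libraries did not, 35 no longer passed and no called value turned its direction. Of the 9 genes, the number of DEGs in WR04-6 vs. QSZ at 10 DAI was 0, and 1 with median-ratio scaling, DESeq2, counts divided by 4 or QSZ replicate 1 as the only library of 12 DAI, and 2 with limma on log2(FPKM + 1) or on quantile-normalized values. At 12 DAI it was 6, and 7 with library totals or limma on log2(FPKM + 1), 8 with limma on log2(FPKM + 0.1) or on quantile-normalized values and 3 with replicate 1 alone or the limit of 0.01. At 14 DAI it was 0, and 1 with library totals and each limma fit, 2 with DESeq2 or counts divided by 4 and 3 with replicate 1 alone. In QSZ from 10 to 12 DAI it was 6, and 7 with DESeq2 and limma on log2(FPKM + 0.1) or log2(FPKM + 1) and 3 with replicate 1 alone or the limit of 0.01; from 12 to 14 DAI it was 1, and 5 with DESeq2 and limma on log2(FPKM + 0.1), 4 on log2(FPKM + 1), 3 after quantile normalization and 0 with replicate 1 alone or the limit of 0.01. In WR04-6 from 10 to 14 DAI it was 0, and 2 with DESeq2 and 1 with limma on log2(FPKM + 1). The interaction was passed by 1, and by 3 with DESeq2, limma on log2(FPKM + 0.1) or quantile normalization, 4 with limma on log2(FPKM + 1) and 0 at the limit of 0.01. The cause of these changes was not tested.

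Leaving out 1 library gave 0 to 1, 4 to 8 and 0 to 3 DEGs in WR04-6 vs. QSZ at 10, 12 and 14 DAI, 4 to 8, 0 to 7 and 0 to 1 in QSZ (12 vs. 10, 14 vs. 12 and 14 vs. 10 DAI), 0, 0 and 0 to 1 in WR04-6 likewise, and 1 to 6 for the interaction. A group left with 1 library was taken to vary like the others. With a replicate block 2 genes passed the interaction and 5 fell in QSZ from 10 to 12 DAI, where EXPB2 was lost (adjusted p = 0.0855). The replicate numbers showed no pairing by 1 measure. Deviations of same-numbered libraries had a median r of −0.0068 over 40 pairs, 7 over 0.1. Differently numbered libraries had 0.011 over 80 pairs, 25 over 0.1, and 3 of 17 libraries correlated best with their own number. With so few libraries per group this measure is weak, and a shared batch was not tested. Low counts limit EXPA1, EXPA3 and EXPB2, and also EXPB3 and EXPA2 in QSZ at 12 DAI. There, replicates 2 and 3 held 16 and 4 estimated counts of EXPB3 and 47 and 45 of EXPA2.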
